A study of Mus musculus with 1 sample.

Results

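Basophil and mast progenitor-like cells were picked out of a single-cell RNA-seq library of lineage-negative, c-Kit-positive (Lin- cKit+) mouse bone marrow by a rule on 5 marker genes. A cell was taken when it held at least 1 transcript of Fcer1a or Ms4a2, which encode chains of the receptor for IgE, and at least 10 transcripts summed over the granule protease genes Prss34, Mcpt8 and Cpa3. The counts are of unique molecular identifiers (UMIs), tags that let amplified copies of a captured transcript be counted as 1. The rule found 467 of the 7645 cells that passed the study's cell filter (6.11%, exact 95% interval 5.58 to 6.67). The measured values of these 5 genes chose the cells, so every level of them is given as a description.

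The study asked how loss of the chromatin factor Brd9 changes blood stem and progenitor cells, and the library analysed here is its control. It is 1 library, from C57BL/6 mice with donor genotype CD45.2(+) Brd9fl/fl and without the Cre deletion, whose cells came from femora and tibiae. The mice had been given pIpC, an inducer of interferon, at 20 mg/kg in 3 doses on alternate days, and the cells were prepared 8 weeks later. The labels name a CD45.1(+) CD45.2(-) transplant recipient treated 4 weeks after transplantation while the series text and the methods describe primary mice, which was not settled, and neither the number of pooled mice nor their age is clear from them. Since there is 1 library, nothing could be tested over replicates. All intervals are exact, at 95%, and hold counting error alone.

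Basophils and mast cells are the blood lineages that carry the high-affinity IgE receptor FceRI, made of an alpha chain that binds IgE, a beta chain that amplifies the signal and a gamma chain that passes it on. When an allergen cross-links the bound IgE, the cells release histamine, proteases, leukotrienes and cytokines. Basophils finish their growth in the marrow under IL-3 and hold little c-Kit once mature, whereas mast cells leave as progenitors, mature in tissues under the c-Kit ligand, and keep c-Kit. A sort on c-Kit therefore takes the early part of the basophil course. The lineage antibodies of the methods (against CD3, B220, Gr-1, CD11b and Ter119) take out cells of any lineage that carry these surface proteins.

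The 467 cells held 7165065 UMIs in all, with a median of 13260 UMIs and 3556 genes per cell (2852 to 43018 UMIs). The other 7178 cells were deeper, at a median of 19057 UMIs and 4207 genes. At an equal depth of 5000 UMIs drawn from each cell the numbers of genes were alike, 1939 in members and 1936 in the others. Scrublet, which looks for barcodes that hold 2 cells, called 43 members (9.21%, 6.74 to 12.2) and 222 other cells (3.09%, 2.70 to 3.52). These calls were kept and removed in an alternative.

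Prss34 encodes a basophil tryptase-like serine protease (chr17:25298394-25300165 on GRCm38, plus strand). Its counts in single members ran from 0 to 928 UMIs with a lower quartile of 2 and a median of 141. Mcpt8 encodes the other basophil serine protease (chr14:56082166-56085273, minus strand) and ran from 0 to 509 UMIs with a median of 96. Cpa3 encodes carboxypeptidase A of basophil and mast cell granules (chr3:20215620-20242181, minus strand). It was the one rule gene found in every member, at 2 to 115 UMIs with a median of 31. The spread of Prss34 and Mcpt8 was thus far wider than that of Cpa3, and the low end of both was 0. The alpha chain gene Fcer1a (chr1:173221284-173227214, minus strand) had a median of 16 UMIs and a maximum of 67, and the beta chain gene Ms4a2 (chr19:11615523-11623719, minus strand) a median of 10 and a maximum of 39. Both receptor genes were present in 425 members, Ms4a2 alone in 35 and Fcer1a alone in 7, and 13 members rested on exactly 1 receptor UMI.

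Levels are summed UMIs of a group per 1000000 of its UMIs (CPM). Each gene is counted near the 3′ end of its transcripts, so CPM values were compared between groups of cells and not between genes. Prss34 stood at 13872 CPM in members and 7.95 CPM in the other cells, Mcpt8 at 7939 and 17.5 CPM, and Cpa3 at 2321 and 29.5 CPM. Fcer1a stood at 1189 and 3.75 CPM and Ms4a2 at 709 and 3.66 CPM. The members, a share of 6.11% of the cells, held 98.9% of the library's Prss34 UMIs, 95.7% of Mcpt8, 79.6% of Cpa3, 94.0% of Fcer1a and 90.6% of Ms4a2.

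Free RNA can put UMIs of abundant genes into cells that do not make them. Its part in the Prss34 UMIs of other cells was not tested. Among 1207 non-member cells with erythroid markers (at least 10 UMIs over Car1, Klf1 and Ermap), which should lack these genes, 21.7% held a Prss34 UMI at a median depth of 32322 UMIs, against 83.1% of members. With every cell thinned to 5000 UMIs the shares were 76.5% of members and 3.57% of erythroid marker cells. The other rule genes stood farther from that background, with thinned shares of 84.7% against 2.65% for Mcpt8, 98.5% against 3.81% for Cpa3, 87.1% against 0.415% for Fcer1a and 89.8% against 1.08% for Ms4a2. The thinning left out 8 members and 1 erythroid marker cell that were shallower.

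The protease minimum cut through a continuous range of cells, with no gap. The 27 receptor-positive cells just outside it, at 7 to 9 protease UMIs, had medians of 4 receptor UMIs, 7 Cpa3 UMIs and 0 UMIs over Prss34 and Mcpt8. The 18 members just inside it, at 10 to 12, had medians of 8.5 receptor UMIs, 10 Cpa3 UMIs and 1 UMI over Prss34 and Mcpt8. Cells on both sides of the minimum were therefore Cpa3-led. Farther in, 52 members held 10 to 19 protease UMIs, 75 held 20 to 49, 45 held 50 to 99, 134 held 100 to 499 and 161 held 500 or more. A further 408 cells had a receptor UMI with fewer than 10 protease UMIs, and 141 cells had 10 or more protease UMIs with neither receptor gene, at a median of 21638 UMIs. The latter 141 had 704 CPM of Cpa3, 191 CPM of Mcpt8 and 12.5 CPM of Prss34.

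The stretches just before the start sites of the 5 rule genes are shown because these genes chose the cells. They are from RefSeq on GRCm38.p6, read 5′ to 3′ on the strand of the gene, each ending at the base before the transcript start: Prss34 at chr17:25298144-25298393, Mcpt8 at chr14:56085274-56085447, Cpa3 at chr3:20242182-20242431, Fcer1a at chr1:173227230-173227479 and Ms4a2 at chr19:11623720-11623969. The Mcpt8 stretch is shorter, at 174 bases against 250, because the GENCODE start lies 76 bases before the RefSeq start. Capitals mark AGATAA (bound by GATA factors), TGTGGT (RUNX factors) and TTGCNNAA (C/EBP factors), each searched on both strands, and no match overlaps another.
Prss34: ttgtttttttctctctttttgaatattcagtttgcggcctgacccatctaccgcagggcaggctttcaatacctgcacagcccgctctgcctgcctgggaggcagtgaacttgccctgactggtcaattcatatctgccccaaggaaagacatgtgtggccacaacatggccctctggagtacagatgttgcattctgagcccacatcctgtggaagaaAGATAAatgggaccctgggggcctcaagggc
Mcpt8: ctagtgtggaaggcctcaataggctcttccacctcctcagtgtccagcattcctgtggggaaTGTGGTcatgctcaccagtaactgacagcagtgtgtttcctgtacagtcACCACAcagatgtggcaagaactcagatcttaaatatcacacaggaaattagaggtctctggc
Cpa3: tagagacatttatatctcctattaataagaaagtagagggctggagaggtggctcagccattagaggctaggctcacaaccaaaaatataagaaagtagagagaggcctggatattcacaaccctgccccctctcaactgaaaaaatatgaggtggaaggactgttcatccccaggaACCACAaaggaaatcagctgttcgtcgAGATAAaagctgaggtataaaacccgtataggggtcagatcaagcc
Fcer1a: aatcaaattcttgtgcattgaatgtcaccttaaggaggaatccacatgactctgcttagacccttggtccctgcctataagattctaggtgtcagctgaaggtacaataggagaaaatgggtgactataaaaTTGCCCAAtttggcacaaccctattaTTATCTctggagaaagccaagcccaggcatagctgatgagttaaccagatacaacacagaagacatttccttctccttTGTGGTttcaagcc
Ms4a2: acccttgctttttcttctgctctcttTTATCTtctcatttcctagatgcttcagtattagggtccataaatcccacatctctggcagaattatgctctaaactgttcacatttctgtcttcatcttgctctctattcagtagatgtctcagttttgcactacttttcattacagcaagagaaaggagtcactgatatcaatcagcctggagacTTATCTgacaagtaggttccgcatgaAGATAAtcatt
AGATAA is held by 4 of the 5, 1 time each in Prss34 (31 to 26 bases before the start), Cpa3 (46 to 41) and Fcer1a (92 to 87), and 3 times in Ms4a2, where the nearest lies 11 to 6 bases before the start. TGTGGT occurs 2 times in Mcpt8 and 1 time each in Cpa3 (73 to 68) and Fcer1a (14 to 9), and TTGCNNAA 1 time, in Fcer1a. Over 32851 promoters of the same 250 bases, 9.99% hold AGATAA, 14.1% TGTGGT and 9.56% TTGCNNAA, and over the 174 bases matched to Mcpt8 the share for TGTGGT is 10.03%. The STAT motif TTCNNNGAA, held by 7.02% of promoters, was found in none of the 5 stretches. A match is a run of letters and not a measured binding site.

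The rule let through cells of unlike makeup, and 3 subsets were described. The Prss34/Mcpt8 subset was 357 cells with at least 10 UMIs over these basophil proteases and no Cma1. The Cpa3 subset was 101 cells that held fewer and passed through Cpa3. The remaining 9 cells had a UMI of Cma1, the chymase gene that marks mast cells. Median depth was 12601, 16962 and 8880 UMIs in that order. In the Prss34/Mcpt8 subset Prss34 reached 18821 CPM, Mcpt8 10726 CPM and Cpa3 2722 CPM, against 32.9, 96.5 and 1077 CPM in the Cpa3 subset. Fcer1a differed in the same direction, at 1515 and 277 CPM, and Ms4a2 at 819 and 400 CPM. Of the 35 members with Ms4a2 alone, 31 were in the Cpa3 subset. Prss34 was the leading protease by UMIs in 270 members, Cpa3 in 128 and Mcpt8 in 69.

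**Figure D1:**
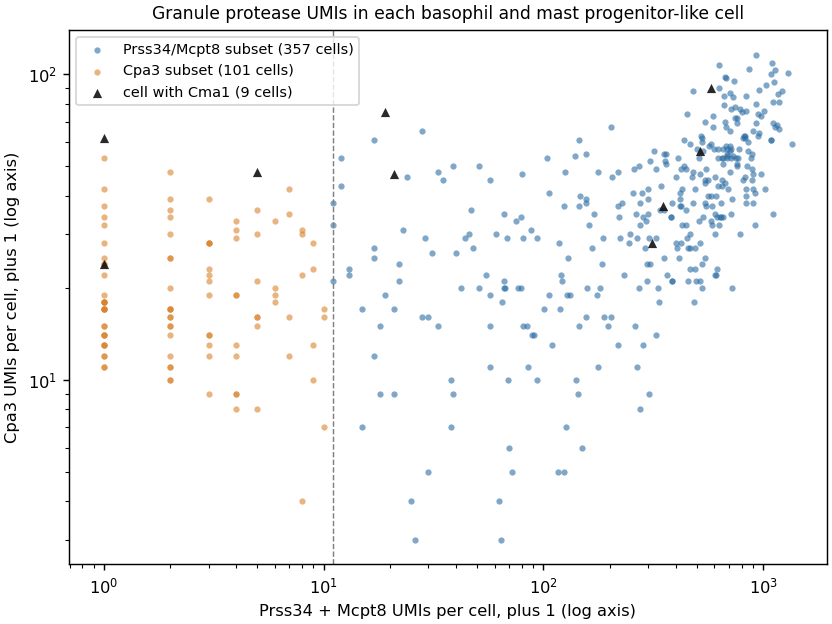
Each point is 1 of the 467 cells, with its UMIs of Prss34 and Mcpt8 summed on the x axis and its UMIs of Cpa3 on the y axis, both plus 1 on log axes, coloured by subset, and the dashed line marks 10 UMIs. The Prss34/Mcpt8 subset runs right of the line up to 1353 UMIs, the Cpa3 subset lies left of it, and the 9 cells with Cma1 (triangles) lie in both parts.

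Over the 459 members of at least 5000 UMIs, thinned to that depth, Prss34 and Mcpt8 counts ran together (Spearman's rho 0.93), and Prss34 with Fcer1a (0.82) and Cpa3 (0.70). Fcer1a and Ms4a2 went together less tightly, at 0.50. Kit (-0.38) and Cd34 (-0.40), which mark immature progenitors, ran against Prss34. These points are cells of 1 library and share its depth and free RNA, so the coefficients are descriptions.

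The protease genes sit in clusters of related genes, and members used few of the neighbours. On chr14:55941451-56262260, 15 coding genes of the chymase and granzyme cluster lie within 320.8 kb, and 9 of them had no UMI in any member. The others were Mcpt8, the neutrophil and basophil serine protease gene Ctsg (3141 CPM in members, 1950 CPM in the others), the granzyme gene Gzmb (33.6 and 0.581 CPM), Cma1 (92 UMIs), Gzmc (4 UMIs) and the mast cell chymase gene Mcpt4 (1 UMI). Mcpt1, Mcpt2, Mcpt9 and Cma2 were among those at 0. On chr17:25298394-25374442 the 6 genes of the tryptase cluster held Prss34 and its neighbour Prss28, with 61 UMIs in 52 members, all in the Prss34/Mcpt8 subset. Prss28 is a paralogue of Prss34, and misplaced reads cannot be told apart from its own. The mast cell tryptase genes Tpsb2 and Tpsab1 had 0 UMIs in all 467 members, which allows up to 0.419 CPM, and Tpsb2 had none in any deposited barcode.

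Ms4a2 likewise sits among 19 Ms4a genes on chr19:10962293-11640851. Members had no UMI of 11 of these, among them the B cell gene Ms4a1. Its nearest neighbour Ms4a3, known from granulocyte-monocyte progenitors, stood at 764 CPM in members and 474 CPM in the others. Ms4a6c stood lower in members (160 and 237 CPM) and Ms4a4c much lower (9 UMIs, 1.26 and 13.6 CPM).

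Checked against its label, the group held little of the mast cell part: of the mast cell marks Tpsb2 was at 0 and Cma1 was found in 9 cells. The presence of Cpa3, Prss34, Mcpt8 and the receptor genes was set by the rule and is no check of the label. Cpa3, Kit and the receptor genes are also shared by both lineages.

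Compared with all other cells, members stood at least 2-fold higher in 850 of 13474 genes with 50 or more UMIs over both groups (6.31%) and at least 2-fold lower in 1662 (12.3%), with the rule genes left out. For 807 of the former and 1175 of the latter the counting interval of the ratio lay wholly on that side of 1. The median ratio over all genes was 0.935, so a typical gene was slightly lower in members. With cells that met the marker minimum of another lineage (described with those lineages) removed, the counts were 1610 and 2907. Genes outside the rule at 50 CPM or more in members were ordered by this ratio with 1 CPM added to both levels. First was Cd200r3, an activating surface receptor of basophils and mast cells, at 132 CPM in members and 0.159 CPM in the others (832-fold, 551 to 1320). It was found in 244 members and 12 other cells, and in none of the 1207 erythroid marker cells.

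Cyp11a1, the enzyme that starts steroid hormone synthesis, came second in that order (158 and 0.442 CPM, 356-fold, 277 to 466) and was found in 335 members. Another gene model overlaps Cyp11a1 on the same strand, so its values are less certain. Rnase12 of the secreted ribonuclease family (314 and 2.75 CPM) and Csrp3, a LIM protein known from muscle (454 and 10.1 CPM), were found in 415 and 412 members. Cdh1, which encodes the adhesion protein E-cadherin, stood 278-fold higher (197 to 403), with 254 members carrying it. The transcription factor gene Ets1 stood 34.2-fold higher (31.3 to 37.3) and the chemokine receptor gene Ccr1 70.7-fold higher (59.6 to 84.3).

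The lowest ratios belonged to other lineages. The immunoglobulin kappa gene Igkc stood at 13.3 CPM in members and 1093 CPM in the others, and Jchain, Ighg2c and Ighm were also among the lowest 8. The shares of cells with a UMI were closer for Igkc (19.1% of members and 23.2% of the others), Jchain (1.3% and 1.5%) and Ighg2c (4.07% and 3.71%). Ighm was held by 16.1% and 42.7%. The 8464 Jchain UMIs of the others were in 109 cells. Haemoglobin genes followed, with Hbb-bs at 42.9 and 357 CPM, and the monocyte surface gene Ly6c2 at 66.9 and 484 CPM. The near-identical copies Hba-a1 and Hba-a2, and Hbb-bs and Hbb-bt, can share reads, so the haemoglobin values are uncertain gene by gene.

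**Figure D2:**
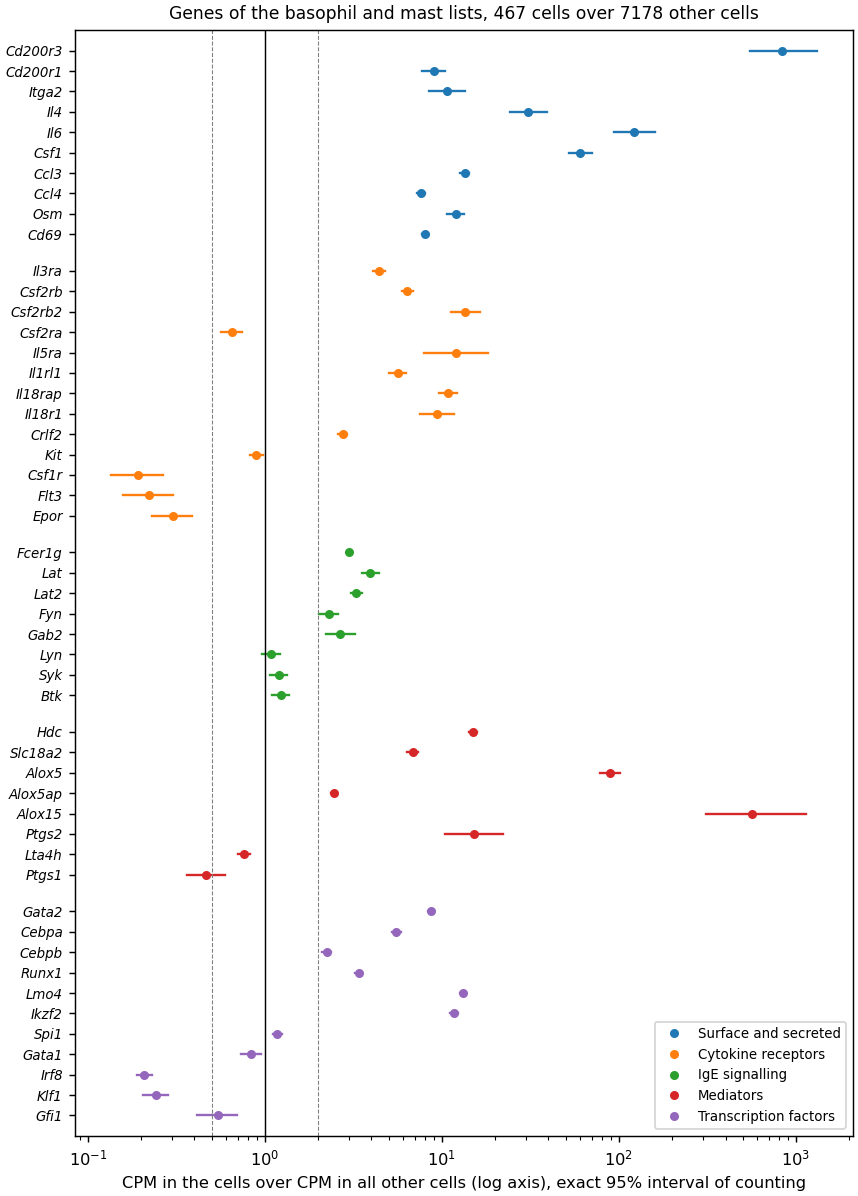
Points give the ratio of CPM in the 467 cells to CPM in the 7178 other cells on a log x axis for genes of 5 lists (colours), lines the exact 95% interval of counting, and dashed lines the 2-fold limits. Cd200r3 lies farthest right at 832, Lyn, Syk and Btk lie between the dashed lines, and Csf1r lies far left among the cytokine receptors at 0.192.

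Of 14 measured genes of basophil surface and cytokines, 13 were at least 2-fold higher in members, against 6.31% of all genes tested, with a median ratio of 9.82. This list and those below were chosen with earlier results of these data known, so their counts are descriptions. Il4, the type 2 cytokine that basophils make in quantity, stood at 25.5 CPM against 0.829 CPM (30.8-fold, 24.3 to 39.1) and was found in 144 members, at most 4 UMIs in any. Il6, an inflammatory cytokine, stood at 54.6 against 0.449 CPM and Csf1, the macrophage growth factor, at 108 against 1.78 CPM. The chemokine genes Ccl3 (317 against 23.6 CPM) and Ccl4 (248 against 32.6 CPM) and the cytokine gene Osm (74.1 against 6.21 CPM) were higher as well. Cd69 (556 against 69.1 CPM), an early activation marker, and Cd63 (1662 against 212 CPM), a granule membrane protein exposed on degranulation, were present in 81.8% and 100% of members. Itga2, which encodes the integrin CD49b used to sort basophils, stood 10.7-fold higher. Il13 was left out of the counts for its low total, with 16 UMIs in 14 members and 3 UMIs elsewhere. The one listed gene that was lower was Enpp3, the basophil marker CD203c of human blood, with 0 UMIs in members against 2.07 CPM in the others.

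The genes that carry the IgE signal differed less. Of 16, 6 were at least 2-fold higher and 1 lower, against 6.31% and 12.3% of all genes, with a median ratio of 1.29. Fcer1g, the gamma chain, was present in 96.6% of members and stood at 869 CPM against 291 CPM (2.99-fold, 2.91 to 3.07). In granulocyte-monocyte marker cells (at least 20 UMIs over Mpo, Elane and Prtn3) it stood at 495 CPM. The adaptor genes Lat (55.4 against 14.1 CPM), Lat2 (124 against 37.8 CPM) and Gab2 (18.0 against 6.75 CPM) and the kinase gene Fyn (38.4 against 16.7 CPM) passed 2-fold. Lat and Fyn were not particular to members. In megakaryocyte marker cells (at least 10 UMIs over Pf4, Gp1bb, Gp9 and Itga2b) they stood higher, at 95.2 and 62.5 CPM. Lat2 (15.0 CPM) and Gab2 (9.51 CPM) stood lower there than in members. Unlike Fyn, 3 other kinase genes of the pathway were near the level of other cells: Lyn stood at 41.6 against 38.4 CPM, Syk at 46.9 against 39.1 CPM and Btk at 53.6 against 43.7 CPM. The ratio of Syk turned to 0.943 (0.742 to 1.18) with cells thinned to 5000 UMIs.

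Among 16 cytokine receptor genes, 8 were at least 2-fold higher and 5 lower (6.31% and 12.3% of all genes), with a median ratio of 1.82, midway between the ratios of Kit (0.894) and Crlf2 (2.75). The higher ones held the IL-3 receptor, whose alpha chain gene Il3ra stood at 105 against 23.8 CPM (4.41-fold, 4.07 to 4.77) and whose beta chain genes Csf2rb and Csf2rb2 stood at 143 against 22.6 and 27.5 against 2.02 CPM. The receptors of the alarmin cytokines were also higher: Il1rl1 for IL-33 (54.2 against 9.65 CPM), Il18r1 and Il18rap for IL-18 (9.40-fold and 10.8-fold) and Crlf2 for TSLP (181 against 65.7 CPM). Il1rl1 was not particular to members by detection, since 56.3% of the deeper erythroid marker cells held a UMI against 50.5% of members. Il5ra, the eosinophil and basophil IL-5 receptor, had 40 UMIs in members. The lower ones were Csf1r, Flt3, Epor and Csf3r, which serve other lineages or earlier stages, and the IL-4 receptor gene Il4ra. Their ratios were Csf1r (0.192), Flt3 (0.222), Epor (0.301), Csf3r (0.405) and Il4ra (0.469). Kit, the gene of the sorting marker, stood at 79.1 CPM against 88.5 CPM, with 48.4% of members holding a UMI against 66.9% of the other cells. At equal depth these shares were 27.0% and 35.8%. With cells at the marker minimum of another lineage removed, its ratio was 1.15 (0.959 to 1.37).

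Of 12 genes for histamine and lipid mediators, 6 were at least 2-fold higher, against 6.31% of all genes, and 1 lower, near the 12.3% of all genes, with a median ratio of 1.78. Hdc, which makes histamine, had a median of 5 UMIs per member with a maximum of 26 and stood at 374 against 24.9 CPM (15.0-fold, 14.3 to 15.8). At equal depth 78.7% of members, 18.0% of granulocyte-monocyte marker cells and 0.580% of erythroid marker cells held it. Slc18a2, which loads histamine into granules, stood at 134 against 19.6 CPM. For leukotrienes, the lipoxygenase gene Alox5 stood at 171 against 1.93 CPM (88.7-fold, 77.9 to 101) and its activating protein Alox5ap at 520 against 212 CPM. The genes of later steps did not stand higher in members: Ltc4s, the leukotriene C4 synthase, had 21 UMIs in members (2.93 against 3.88 CPM) and Lta4h stood at 96.6 against 126 CPM. Alox15, another lipoxygenase, stood at 42.7 against 0.0760 CPM in 155 members. The cyclooxygenase gene Ptgs2 was higher (52 UMIs in 30 members) and Ptgs1 lower (9.91 against 21.2 CPM).

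Of 7 measured genes outside the rule for granule proteases and their partners, Gzmb and Srgn were at least 2-fold higher (6.31% of all genes) and Ctse lower, the latter near the share of 12.3% over all genes. Srgn, the proteoglycan core that packs granule contents, was in every member at 3255 against 1216 CPM. Gzmb UMIs were concentrated: 10 cells held 78.4% of its 241 UMIs in members. Of 7 measured mast cell genes, 3 were at least 2-fold higher (Hs3st1, Ndst2 and Adora3), against 6.31% of all genes, and Cysltr1 was lower, near the 12.3% of all genes, with a median of 1.03. Ndst2, which sulphates the heparin of mast cell granules, stood at 40.5 against 12.5 CPM, and Mitf, the main transcription factor of mast cell granule genes, had 21 UMIs in members (2.93 against 3.41 CPM).

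Of 32 transcription factor genes, 7 were at least 2-fold higher, against 6.31% of all genes, and 4 lower, which is about the share of 12.3% over all genes. The median ratio was 1.04. Gata2, needed for basophils and mast cells alike, had a median of 8 UMIs per member (0 to 34) and stood at 570 against 65.5 CPM (8.70-fold, 8.39 to 9.03). Cebpa, which with Gata2 directs progenitors to the basophil lineage, had a median of 3 UMIs (0 to 11) and stood at 198 against 35.9 CPM (5.52-fold, 5.20 to 5.86). Among thinned members the 2 ran together weakly, with a Spearman's rho of 0.32. Runx1 (356 against 105 CPM), whose factor is needed for basophils, the LIM-only factor gene Lmo4 (795 against 60.7 CPM), Ikzf2 (313 against 26.9 CPM), Cebpb (171 against 76.6 CPM) and the early response gene Egr1 (254 against 96.3 CPM) made up the rest. The ones lower in members were Irf8 of monocytes and dendritic cells (60.2 against 288 CPM), Klf1 and Zfpm1 of the erythroid lineage, and Mycn.

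Set beside the marker groups of the library, the factor levels showed the mix more closely. Gata2 was 13.7 CPM in 3090 granulocyte-monocyte marker cells, 278 CPM in 586 megakaryocyte marker cells and 34.1 CPM in erythroid marker cells, so members at 570 CPM stood above each. Cebpa was 66.7, 2.13 and 1.29 CPM in the same order against 198 CPM in members. Runx1 was 108, 208 and 43.9 CPM against 356 CPM. Gata1, which drives the erythroid and megakaryocyte lineages, was 2.24, 48.7 and 123 CPM against 34.2 CPM, and Spi1, of the myeloid lineages, stood at 168 CPM in members against 143 CPM in all other cells. Members thus held high Gata2 together with high Cebpa, a pair that the 3 marker groups held apart. Reads of Lmo4 and Ikzf2 are counted where other gene models overlap them on the same strand, so these values are less certain.

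**Figure D3:**
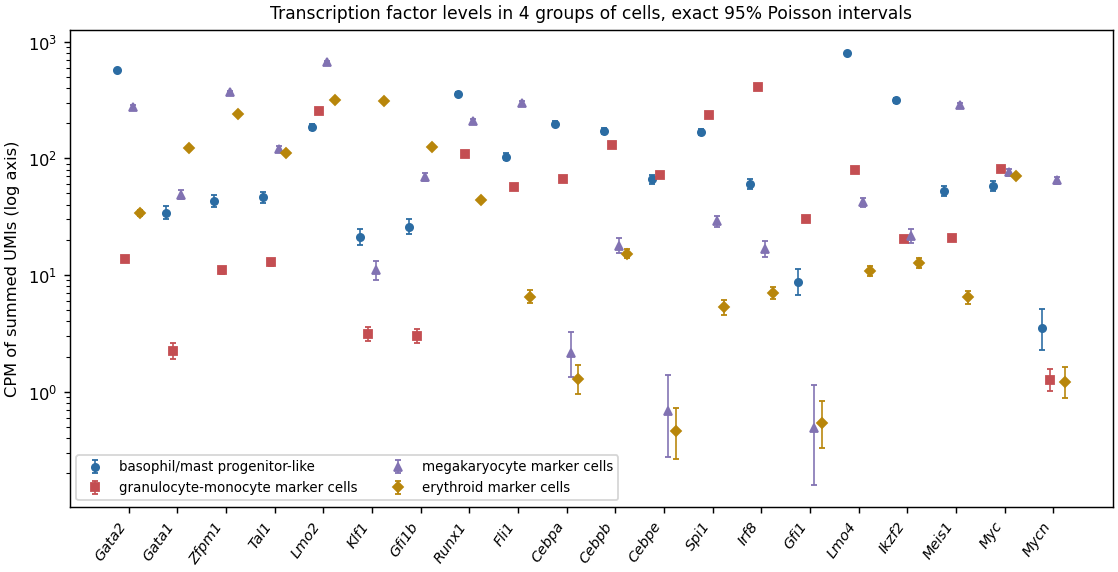
Points give the CPM of transcription factor genes on a log y axis in the 467 cells and in granulocyte-monocyte, megakaryocyte and erythroid marker cells, with exact 95% Poisson intervals as bars. The 467 cells have the highest Gata2 (570 CPM), Cebpa (198 CPM) and Runx1 (356 CPM) of the 4 groups, and Gata1 is highest in erythroid marker cells (123 CPM).

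Genes of other lineages were mostly lower, with a few cells that held many of them. All 11 erythroid genes were at least 2-fold lower, against 12.3% of all genes, as were 9 of 10 stem cell genes, 7 of 11 granulocyte-monocyte genes, 4 of 8 megakaryocyte genes and 3 of 11 dendritic and lymphoid genes. The granulocyte-monocyte list split: Elane (825 against 3158 CPM) and Prtn3 (1027 against 3261 CPM), the neutrophil granule proteases, were lower, but Mpo, the myeloperoxidase of the same granules, stood at 2684 against 2453 CPM and was found in 97.9% of members at a median of 29 UMIs. Of the members, 332 (71.1%, 66.7 to 75.2) met the minimum of 20 UMIs over Mpo, Elane and Prtn3 that defined granulocyte-monocyte marker cells, at a median of 36 UMIs over the 3 genes against 332 in those cells. Another 19 met the megakaryocyte, 20 the erythroid and 27 the eosinophil minimum, counting cells that met several. Only 124 members (26.6%) met none. With every cell at such a minimum removed from the members, Kit turned to 1.15 of the other cells (0.959 to 1.37). The low Mpo left by that removal (0.314) is set by the filter, which counts Mpo. The members also had more doublet calls than the rest, and the part of mixed barcodes in these values was not tested.

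Itga2b was the one megakaryocyte gene at least 2-fold higher in members (199 against 60.0 CPM). It encodes the integrin CD41, and 89.5% of members held it against 11.5% of the deeper erythroid marker cells. In megakaryocyte marker cells it stood at 580 CPM. Pf4, a platelet chemokine, differed from it: members stood at 165 CPM, and 10 cells held 87.7% of the UMIs.

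Eosinophil granule genes rested on few cells. Of 7 measured genes of that list 5 were at least 2-fold higher in members, against 6.31% of all genes, with a median ratio of 16.8. Prg2, the major basic protein, stood at 1735 against 64.4 CPM, but only 47 members held it, 10 cells held 78.0% of its UMIs, and 1 cell held 1963. With the cells at the eosinophil minimum (at least 10 UMIs over Epx, Prg2 and Prg3) left out of both groups, Prg2 turned to 0.858 (0.526 to 1.325), Prg3 to 0.149 and Cebpe to 0.547 of the other cells. The low Prg2 and Prg3 left by that removal are set by the filter, which counts both. Alox15 and Il5ra are counted on that list too.

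The 11 genes of ncBAF, the chromatin remodelling complex that contains Brd9, were within 2-fold of the other cells, with a median ratio of 0.931. Brd9 itself stood at 33.5 CPM (240 UMIs) against 30.1 CPM, a ratio of 1.11 (0.973 to 1.27). Of 10 interferon-stimulated genes 2 were at least 2-fold higher, against 6.31% of all genes: Ifitm1, at 818 against 158 CPM and in 90.8% of members, and Ifit1, which turned to 0.525 (0.0132 to 2.96) with mixed cells removed. The other 8 were within 2-fold, with a median of 0.937 over the list. The 43 S phase genes summed to 3686 CPM against 4641 CPM, and the 54 G2/M genes to 7883 against 7836 CPM.

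Within the members, the Cpa3 subset stood at least 2-fold higher than the Prss34/Mcpt8 subset in 149 of 8637 genes (1.73%) and at least 2-fold lower in 266 (3.08%). The counting interval lay wholly on that side of 1 for 149 and 264 of them. Basophil surface and cytokine genes differed most as a list, with 11 of 13 at least 2-fold lower in the Cpa3 subset, against 3.08% of all genes, and a median ratio of 0.328. Cd200r3 had 8 UMIs in 4 of the 101 cells of the Cpa3 subset and 928 UMIs in 236 of the 357 others (4.39 and 178 CPM). Alox15 had 1 UMI against 300, Ccr1 6 against 580 and Cyp11a1 15.4 against 203 CPM. Fcer1g (265 against 1074 CPM) and Lat2 were the 2 of 14 IgE signalling genes that were at least 2-fold lower, and Alox5 (50.4 against 212 CPM) one of 4 of 10 mediator genes. Hdc stood at 225 against 428 CPM, and Slc18a2 at 149 against 126 CPM.

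Higher in the Cpa3 subset were Kit (122 against 56.1 CPM, 2.17-fold, 1.81 to 2.59) and the progenitor surface gene Cd34 (178 against 82.4 CPM, 2.16-fold, 1.86 to 2.50). Ctla2a, a cysteine protease inhibitor gene, stood 3.88-fold higher (3.40 to 4.44) and was held by 81 of 101 cells against 125 of 357. It overlaps 2 other gene models on its strand. Meis1, a factor of early progenitors, stood 2.06-fold higher (1.66 to 2.55). Epx, Prg3 and Cebpe were also among the 10 highest, but Epx and Prg3 were held by 10 of the 101 cells each, and Cebpe by 32. Gata2 (351 against 638 CPM) and Cebpa (117 against 229 CPM) stood lower, Cebpb at 0.325 (0.268 to 0.392), while Lmo4 (753 against 803 CPM) and Ikzf2 (331 against 306 CPM) were near level.

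The Prss34/Mcpt8 subset was then split into 3 tiers of 119 cells by the share of each cell's UMIs that fell on Prss34 and Mcpt8, a split chosen on those values. Cd200r3 stood at 23.7 CPM in the low, 167 CPM in the middle and 449 CPM in the high tier, after 4.39 CPM in the Cpa3 subset. Alox15 went the same way, from 0.548 CPM over 7.45 and 57.4 to 140.5 CPM, as did Ccr1 from 3.29 over 30.7 and 128 to 222 CPM. The cytokine genes followed, with Ccl3 at 52.1, 94.5, 319 and 1065 CPM and Il6 at 13.7, 23.3, 67.0 and 147 CPM. The high tier thus held the highest level of each of these genes.

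Kit ran the other way, at 122 CPM in the Cpa3 subset and 88.9, 44.5 and 17.8 CPM in the tiers, and Cd34 likewise at 178, 121, 70.4 and 35.5 CPM. Elane stood at 1040, 1584, 277 and 75.7 CPM, so its highest level was in the low tier, where 1 cell held 434 UMIs. Irf8 stood at 36.7, 102, 79.4 and 3.09 CPM. Gata2 was higher tier by tier (351, 405, 681 and 964 CPM), Cebpa also (117, 168, 221 and 340 CPM), Runx1 less so (300, 294, 380 and 500 CPM), and Lmo4 was highest in the middle tier (753, 864, 899 and 570 CPM). The summed G2/M genes stood at 7216, 7079, 7547 and 10430 CPM and the S phase genes at 4122, 3508, 3562 and 3533 CPM, so the G2/M level was highest in the high tier and the S phase level was not. Thinned to 5000 UMIs, the median cell held 24, 24, 26.5 and 29.5 G2/M UMIs, and the upper tail differed more, with a 90th percentile of 109.3 UMIs in the high tier against 64.0 in the middle one. Median depth was lower along the same order (16962, 15297, 13941 and 10648 UMIs), while doublet calls were most frequent in the middle tier and absent from the high one (8, 15, 20 and 0 cells). The part of both in these levels was not tested.

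**Figure D4:**
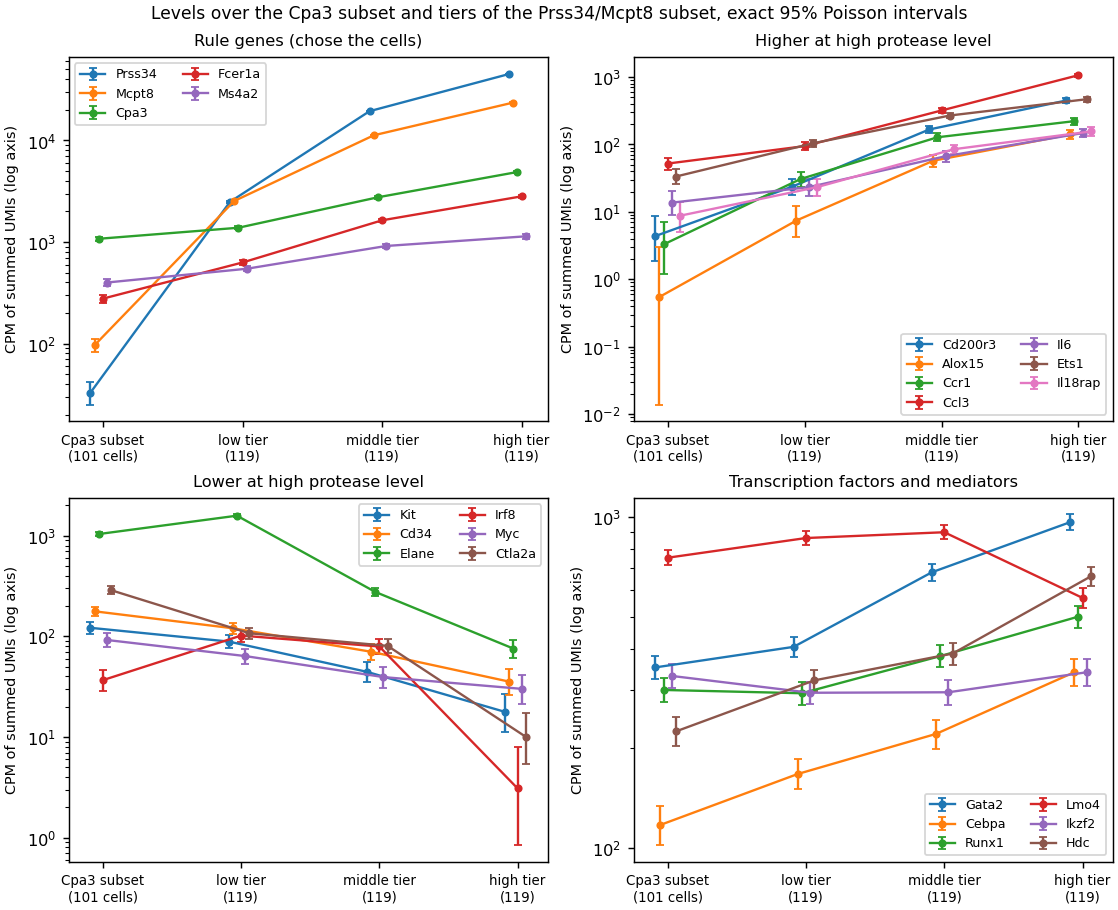
Panels give the CPM of single genes on a log y axis in the Cpa3 subset (101 cells) and in the low, middle and high tier of the Prss34/Mcpt8 subset (119 cells each), with exact 95% Poisson intervals as bars. Cd200r3 goes from 4.39 CPM at the left to 449 CPM at the right, and Kit from 122 to 17.8 CPM.

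The 9 members with Cma1 were 1.93% of members (0.885 to 3.63), and 2 further cells of the library held its other 4 UMIs. With at least 3 Cma1 UMIs required the share was 1.07% (0.35 to 2.48, 5 members). The 9 differed among themselves. The first 5 held 57, 16, 8, 4 and 3 UMIs of Cma1, no Prss34 at all, and 20, 4, 0, 0 and 18 UMIs of Mcpt8. Their Cpa3 counts were 46, 47, 61, 23 and 74 UMIs and their Kit counts 14, 8, 10, 6 and 11 UMIs, above the median of 0 Kit UMIs over all members. Gzmb stood at 5, 11, 15, 13 and 47 UMIs in them, and the heparan sulphate sulphotransferase gene Hs6st2 at 3, 2, 2, 2 and 5 UMIs.

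The other 4 had 1 Cma1 UMI each, with Prss34 at 174, 326, 412 and 171 UMIs and Mcpt8 at 136, 191, 167 and 179 UMIs. Kit was at 0 in 3 of them and at 3 UMIs in 1, and Gzmb at 4 UMIs in 1 and at 0 in 3. By these counts the latter 4 were like the Prss34/Mcpt8 subset and the first 5 stood apart from them, with Kit and without Prss34. This was not particular to the 5. In the Cpa3 subset 35 of 101 cells held Prss34 (median 0 UMIs) and 78 held Kit (median 2, maximum 11). Of the pair of mast cell marks they held Cma1 and no Tpsb2. Of other mast cell genes, Mcpt4 had 1 UMI in the first cell and Mitf 2 and 1 UMIs in the second and the fifth. The 5 are given no cell type name, since only Cma1 of the pair was detected and Mcpt4 and Mitf rested on 1 or 2 UMIs per cell. None of the 9 was a doublet call.

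**Figure D5:**
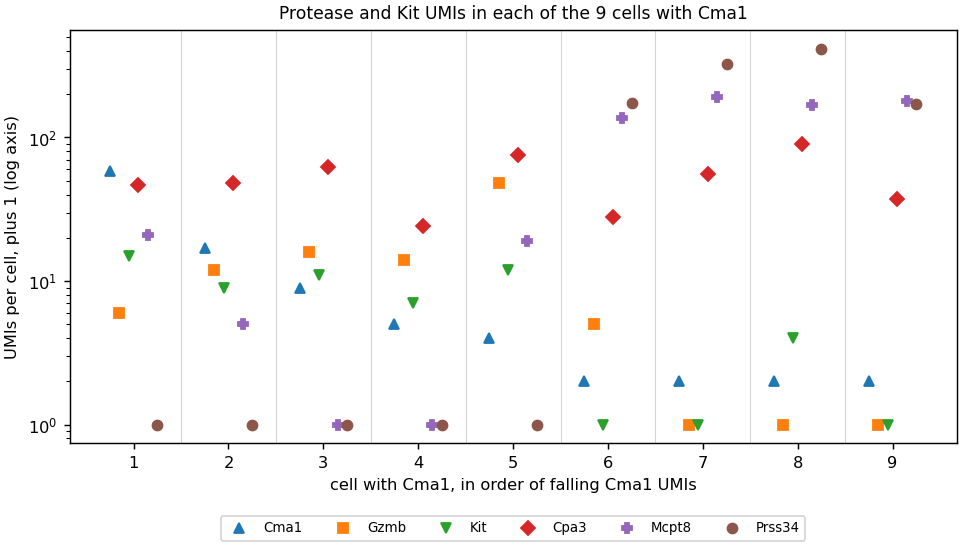
Points give the UMIs, plus 1 on a log y axis, of 6 genes in each of the 9 members with Cma1, which stand along the x axis in order of falling Cma1. Cells 1 to 5 hold 3 to 57 Cma1 UMIs and no Prss34, and cells 6 to 9 hold 1 Cma1 UMI and 171 to 412 Prss34 UMIs.

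Against the other 458 members, the 9 cells were at least 2-fold higher in 915 of 8686 genes (10.5%) and lower in 1408 (16.2%), but they held only 120726 UMIs, and the counting interval excluded 1 on that side for 356 and 113 genes. Of the genes called lower, 743 had no UMI in the 9 cells. The count of 915 moved to 440 with cells at another lineage's minimum removed and to 1400 with the 5 cells of at least 3 Cma1 UMIs as the marked group. Of 11 measured cytokine receptor genes, 3 were at least 2-fold higher, against 10.5% of all genes: Kit (431 CPM, 5.89-fold, lower bound 4.34), Il1rl1 (265 CPM, 5.25-fold) and Il18r1. Of 4 measured mast cell genes 3 were higher, Ndst2, Hs3st1 and Rab27b. Gzmb stood at 787 CPM against 20.7 CPM (38.0-fold, 29.0 to 49.5). Of the 10 highest genes 3 rested on 1 cell: Gata3 (14 UMIs), Il7r (8) and Trbc2 (9), genes of lymphoid cells, were all in the second cell and in no other of the 9. Of 10 granulocyte-monocyte genes 7 were at least 2-fold lower, Elane at 182 CPM among them, and none was higher.

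Gzmb, looked at further after its values were seen, was held by few cells. In the whole library 18 cells held at least 5 UMIs of Gzmb, of which 12 were members: 5 with Cma1, 4 of the Cpa3 subset and 3 of the Prss34/Mcpt8 subset. Those with most in the Cpa3 subset held 41 and 38 UMIs of Gzmb, 24 of Cpa3 each, no Prss34 and 4 and 2 UMIs of Kit. The 6 cells that were not members held 0 to 4 UMIs of Ms4a2 and 0 to 5 of Cpa3, under the protease minimum. Cd3e and Klrb1c, which mark T and natural killer cells, were at 0 in all 18, while Nkg7, a granule gene of cytotoxic cells that 98.3% of all members held, was at 2 to 19 UMIs in 17 of them and Trbc2 at 9 UMIs in 1.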

How the data were processed

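Single-cell transcriptomes of Lin- cKit+ bone marrow cells were measured in 1 control library (10x Chromium, per the methods and the matrix header; the labels describe a kit for bulk RNA). Counts of UMIs per gene and barcode had been generated by the authors with Cell Ranger 6.0.2 on mm10, and were deposited raw for the called barcodes, before cells were filtered. The study's further library, of deleted cells, was not used here. Cells were kept by the published limits, namely more than 1000 but fewer than 50000 UMIs, more than 1000 but fewer than 6500 genes and less than 7% mitochondrial UMIs, which left 7645 of 8817 barcodes.

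The members and gene lists were chosen with earlier results of these data known. Counts were summed per group, and genes with at least 50 UMIs over both groups were called at a ratio of at least 2 or at most 0.5. Levels have exact Poisson, shares Clopper-Pearson and ratios conditional binomial intervals at 95% (scipy 1.17.1). A count of 0 is given with the level of 3 UMIs. Granulocyte-monocyte marker cells held at least 20 UMIs over Mpo, Elane and Prtn3, megakaryocyte marker cells 10 over Pf4, Gp1bb, Gp9 and Itga2b, and cells at more than 1 minimum were left out. Doublets were called with Scrublet (scanpy 1.11.5, expected rate 6%) and kept. Named genes were those of 19 lists, less a few whose results are not reported here, plus the 12 highest and 8 lowest ratios against other cells, and the 10 highest and 6 lowest within the members, at 50 CPM or more in the higher group with 1 CPM added to both. Genes outside this rule were named for their position beside a rule gene. Positions are from GENCODE M21 on GRCm38, where all 231 named genes were found, and promoters from RefSeq. The scripts were tested on simulated data. The alternatives were other member rules and cell filters, removal of doublets and of mixed cells, thinning to 5000 UMIs, other gene minimums and other totals.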

Additional observations from a re-analysis of the deposited data

Results flagged for a closer look

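Outside the cell filter, 23 of 1172 barcodes met the marker rule (1.96%, 1.25 to 2.93). Of these, 11 failed on the mitochondrial share, 9 on too many UMIs, 11 on too many genes and 3 on too few genes, some on several counts. Their depth ran from 1275 to 92187 UMIs with a median of 15120. The level of Prss34 and Mcpt8 together was 3767 CPM in them, 5 passed through Cpa3, and none held Cma1. They are in no comparison of the report except the alternative without the cell filter.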

How the results depend on the processing

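The member share of 6.11% moved to 5.43% with at least 20 protease UMIs, 5.56% with both receptor genes required, 5.56% without the cell filter, 4.74% with cells thinned to 5000 UMIs and 1.62% with cells at another lineage's minimum removed, which also moved the Cma1 share to 4.03%. The 850 higher and 1662 lower genes became 1610 and 2907 with those mixed cells removed, and 1352 and 2876 at a minimum of 10 UMIs per gene. The 915 genes higher in Cma1 cells became 440 with mixed cells removed, 1583 at 10 UMIs per gene and 1400 with at least 3 Cma1 UMIs. The 149 higher and 266 lower genes of the Cpa3 subset became 523 and 658 at 10 UMIs per gene, an alternative chosen after seeing the data. These gene counts stayed within 1.5 times under the other alternatives run for each: with doublet calls removed they were 920 and 1912, 826, and 177 and 294. For the Cpa3 subset the others run were doublet removal, the stricter cell filter, other totals and leaving out eosinophil marker cells. The gene minimum admits more genes, and mixed cells leave fewer members; other causes were not tested.

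Of the ratios of 204 named genes between members and other cells none reversed with doublet calls removed or under either cell filter, nor any of 200 with other totals. Sizes moved more often: beyond their counting interval moved 152 of 204 ratios with mixed cells removed, 132 with thinning and 57 with doublet calls removed. Tmem176b went from 1.08 to 0.953 at 20 protease UMIs and 0.998 with both receptors. Thinning reversed Tmem176b (0.515), Syk (0.943), Cebpe (0.761) and Bcl7b (1.04). Removing mixed cells reversed Tmem176b (0.657), Grap2 (1.28), Kit (1.15), Il7r (3.36), Epx (0.343), Prg2 (0.0880), Mpo (0.314), Ifit1 (0.525) and Id2 (2.01), and took Il5ra, Cebpe and Prg3 to 0. Of these, Mpo, Epx, Prg2 and Prg3 are counted by that filter itself. Chosen after seeing the data, leaving out the Cma1 cells reversed Hs6st2 (0.903), and leaving out eosinophil marker cells Cebpe (0.547), Prg2 (0.858) and Prg3 (0.149). Reversed means a ratio on the other side of 1, and several intervals still spanned 1. These were Grap2, Kit, Il5ra, Epx and Ifit1 with mixed cells removed, and Syk, Cebpe and Bcl7b with thinning. So did Tmem176b under both other member rules, Hs6st2 without the Cma1 cells and Prg2 without the eosinophil marker cells. The latter filter counts Prg2 and Prg3 itself. No paired analysis was possible because there is 1 library. Differences between mice, sorts and libraries cannot be seen, and free RNA limits low shares of cells.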

Other observations

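Of genes that did not choose them, the 408 cells with a receptor UMI and fewer than 10 protease UMIs held Gata2 at 147 CPM, Lmo4 at 154 CPM and Csrp3 at 67.2 CPM, above the 65.5, 60.7 and 10.1 CPM of all non-members, of which they are a part. Kit stood at 105 CPM and Cd34 at 88.5 CPM.

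The 141 cells with 10 or more protease UMIs and neither receptor gene differed from the members. They held 4638 CPM of Mpo, with 281 CPM of Cd34 and 159 CPM of Cebpe. The Mpo level was close to the 4839 CPM of granulocyte-monocyte marker cells, a group that Mpo helps define and that can include some of the 141. Csrp3, at 454 CPM in members, stood at 2.49 CPM in the 141 cells, and Gata2 at 70.7 CPM. Only 2 of the 141 were doublet calls.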
